A study of Rattus norvegicus with 3 samples.

Results

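The lysosomal hydrolases and membrane proteins described here are 47 genes listed by name under a rule that sets no measured value as a criterion, and 45 of them were found among the 16516 genes tested in the authors' deposited table. Ctso and Sgsh, the other two, were not in its gene column and are not analysed here. RNA was sequenced from cells of 5 rats of the Wistar Hannover strain, for which the labels name no treatment, age or sex. Enamel organs were dissected into 3 populations: cells of the cervical loop, ameloblasts at the secretory stage and ameloblasts at the maturation stage. The cervical loop is the growing end of the rat incisor and holds the dividing epithelium from which ameloblasts arise. Secretory ameloblasts lay down the enamel matrix, and maturation ameloblasts follow them in time and take the matrix back while mineral fills the space. Each stage is held as 1 mean per gene, so no standard deviation or interval can stand beside a mean. The spread between libraries is known only through the p-value of the authors' deposited table for each gene and pair of stages, from the authors' model over all libraries, and the authors' adjusted p below is that p-value after Benjamini-Hochberg adjustment over all genes tested, recomputed here. The unit of the means is not stated, and they are not known to be corrected for gene length. Levels are therefore compared between stages of the same gene. Where means are summed over genes or transcripts, the sum weights them by lengths that may be uncorrected, and it is set against the same sum in another stage.

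Lysosomes are acidic compartments in which hydrolases break down proteins, sugars, sulfated glycans and lipids that arrive by endocytosis or autophagy. Most hydrolases travel there on mannose 6-phosphate receptors, and a set of membrane proteins lines the compartment and exports its products. The transcription factor Tfeb and its relatives raise many of these genes together. In enamel formation, matrix fragments are taken up by ameloblasts along the endocytic route, and the title of the series names changes in endocytosis across the stages.

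The labels of the 3 populations were checked against marker genes. All 4 secretory markers (Ambn, Amelx, Enam and Mmp20) were higher in secretory than in cervical loop cells, all 5 maturation markers (Klk4, Amtn, Odam, Wdr72 and Slc24a4) were higher in maturation than in secretory cells, and all 5 cell division markers were lower in secretory than in cervical loop cells. Among 4 epithelium markers, Krt14 and Krt5 were higher and Epcam lower in both later stages than in cervical loop cells. Transcripts of other cell types were found in every dissection. Means of 10 mesenchyme markers reached 5618 in cervical loop, 5218 in secretory and 6385 in maturation cells, and none of 17 measured macrophage markers was at or below 0.1, the level taken as a floor, in any stage. In such bulk samples, fewer cells of a type and less RNA per cell cannot be told apart.

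Lysosomal genes stood higher in the later stages, and most had their highest mean in maturation ameloblasts. Of the 45 genes, 3 had their highest mean in cervical loop, 8 in secretory and 34 in maturation cells, where 44.4%, 22.3% and 33.4% of all genes did. A difference among the 3 stages passed the threshold, an adjusted p under 0.05, for 36 of the 45, against 67.2% of all genes. Between the highest and the lowest stage the median fold was 1.86 for the lysosomal genes and 1.69 for all genes. The map of stage means shows each gene's 3 values.

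**Figure D1:**
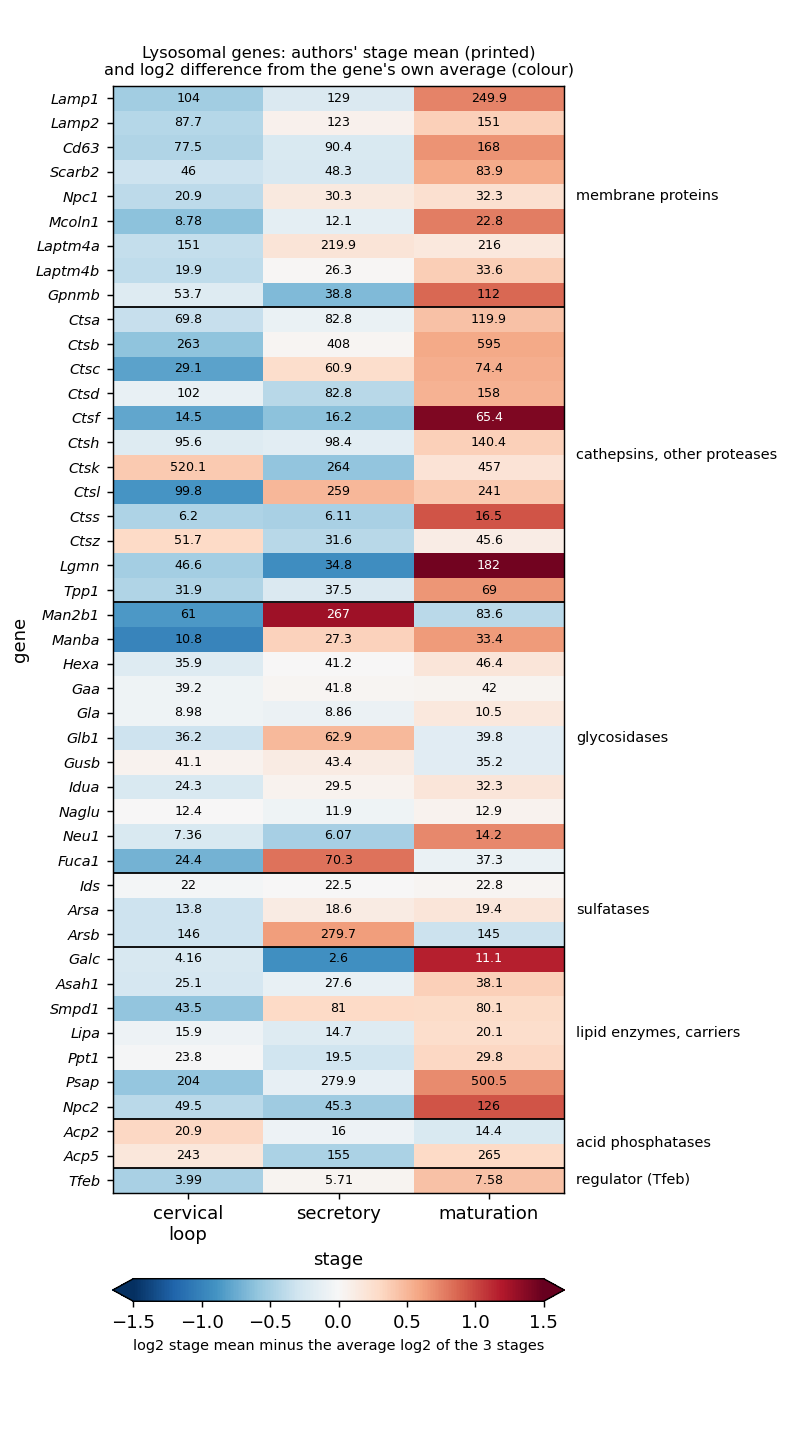
Authors' stage means of the 45 lysosomal genes (printed numbers, unit not stated) in cervical loop, secretory and maturation cells, with genes in rows by role. Colour gives the log2 mean minus the gene's own average over the 3 stages. Red, the higher values, gathers in the maturation column, where 34 of the 45 genes have their highest mean, while Man2b1, Fuca1, Glb1 and Arsb are reddest in the secretory column.

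In secretory ameloblasts against cervical loop cells, 18 of the 45 genes rose, 2 fell (Galc and Acp2) and 25 did not pass. Of all genes, 16.5% rose and 25.2% fell. The median log2 ratio was 0.20 for the lysosomal genes and -0.14 for all genes. With a threshold of 0.01, 11 rose and 1 fell, and at 0.05 with a fold of 1.5 or more required too, 9 rose and 1 fell.

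In maturation against secretory ameloblasts, 20 of the 45 rose, 4 fell (Man2b1, Fuca1, Glb1 and Arsb) and 21 did not pass. Of all genes, 21.8% rose and 21.1% fell. The median log2 ratio was 0.46 for the lysosomal genes and 0.01 for all genes.

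In maturation ameloblasts against cervical loop cells, 32 of the 45 rose, 1 fell (Acp2) and 12 did not pass, where 24.1% of all genes rose and 33.7% fell. Here the median log2 ratio was 0.63 for the lysosomal genes, against -0.12 for all genes. Each comparison shares a stage with each of the others, so they are not independent of one another. Rescaling means to their sum without the 10 largest genes of each stage shifts every log2 ratio alike, by -0.12, 0.00 and -0.12 over the 3 comparisons. Such shifts, like those of the all-gene medians, are smaller than 0.31, the smallest log2 ratio in size of any called lysosomal gene. They could therefore not turn the direction of a call. Whether a gene would still pass after such a shift was not tested, because the p-values were kept as deposited.

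**Figure D2:**
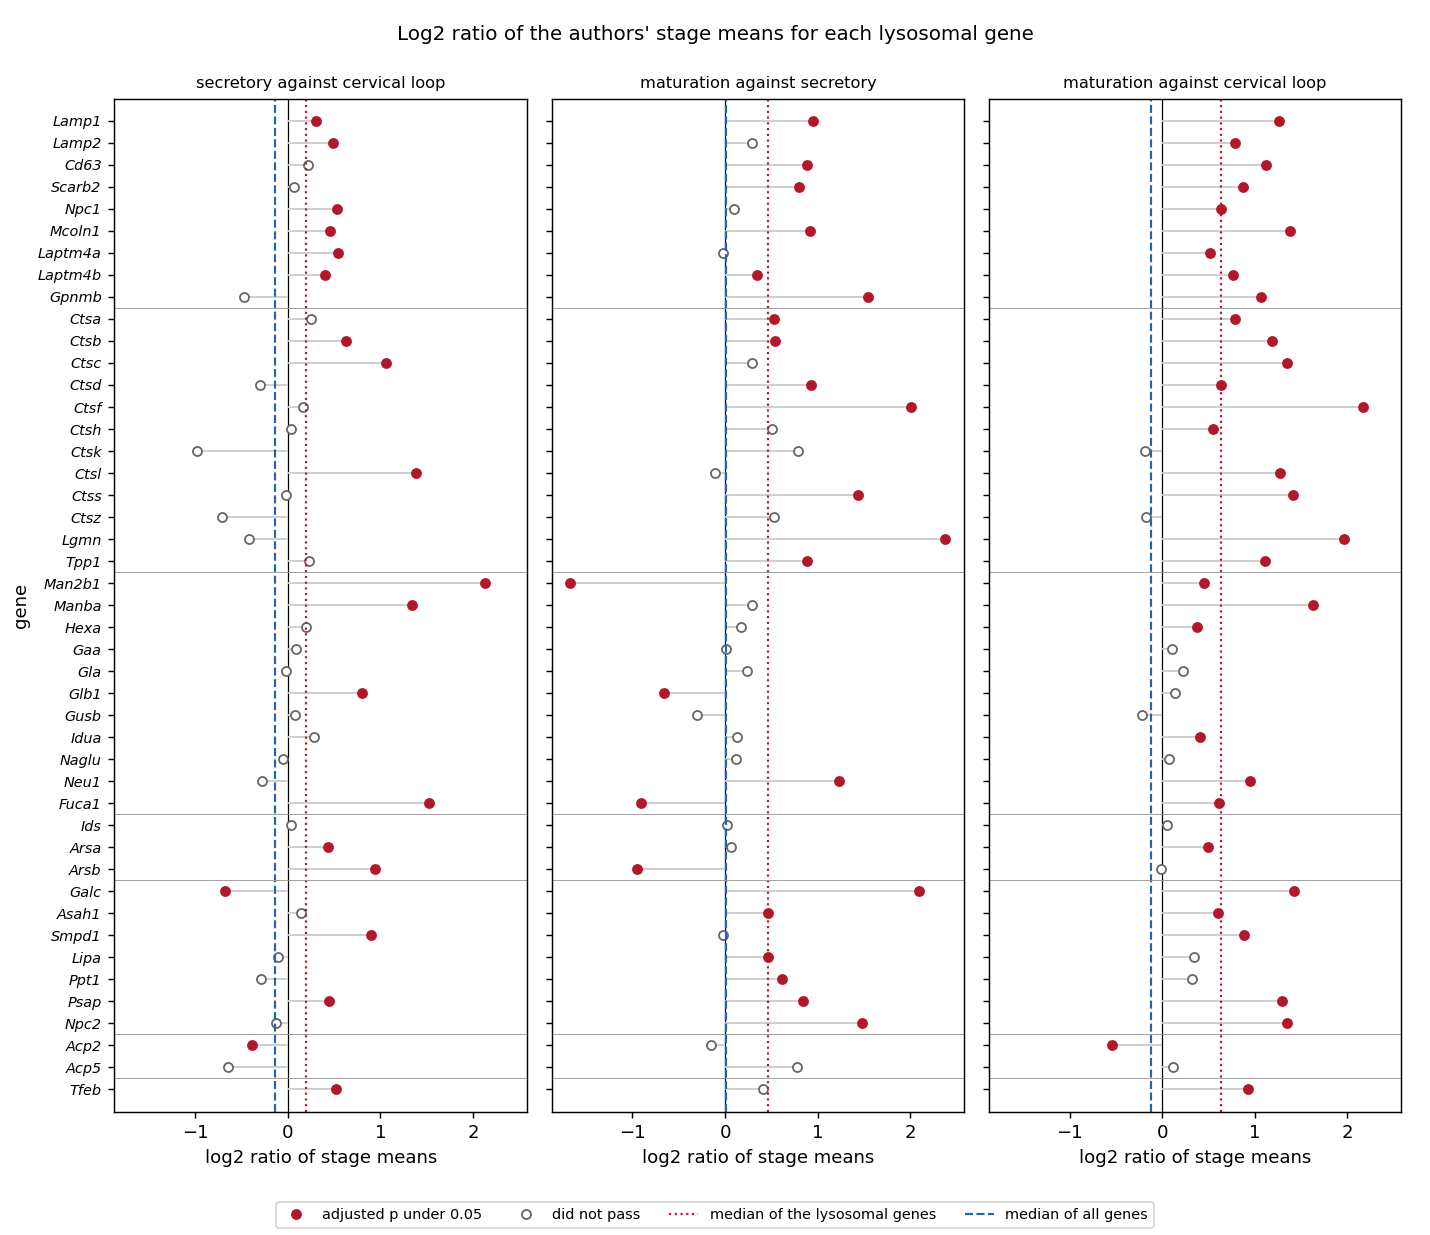
Log2 ratio of the authors' stage means for each lysosomal gene in the 3 pairs of stages. Filled points have an adjusted p under 0.05 and open points do not. The dotted line is the median of the lysosomal genes (0.20, 0.46 and 0.63) and the dashed line that of all genes (-0.14, 0.01 and -0.12). Points lie mostly to the right of 0 in the last panel, where Acp2 is the filled point on the left.

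Membrane proteins of the lysosome rose in every case between the ends of the series: all 9 were higher in maturation than in cervical loop cells. In maturation against secretory cells 6 rose, and in secretory against cervical loop cells 6 rose, with none lower in either. In the order of these comparisons, 24.1%, 21.8% and 16.5% of all genes rose, and 33.7%, 21.1% and 25.2% fell. Lamp1, a heavily glycosylated protein that lines the lysosomal membrane, stood at 104 in cervical loop, 129 in secretory and 249.9 in maturation cells. It was 1.24-fold higher in secretory than in cervical loop cells (the authors' adjusted p = 0.00470) and 1.93-fold higher in maturation against secretory cells (the authors' adjusted p = 1.81e-04). The later step was the larger on the log2 scale, 0.95 against 0.31. Its relative Lamp2 stood at 87.7, 123 and 151 in the same order, and passed in the earlier step (1.40-fold, the authors' adjusted p = 0.0278) but not in the later (1.22-fold, the authors' adjusted p = 0.107).

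Mcoln1, which encodes the channel that lets calcium out of lysosomes, stood at 8.78 in cervical loop, 12.1 in secretory and 22.8 in maturation cells. It rose in both steps, 1.37-fold in secretory against cervical loop cells (the authors' adjusted p = 0.00898) and 1.89-fold in maturation against secretory cells (the authors' adjusted p = 6.27e-04). Cd63, a tetraspanin of late endosomes and lysosomes, stood at 77.5, 90.4 and 168 in the order of the stages. Scarb2, the receptor that carries glucocerebrosidase to lysosomes, stood at 46.0, 48.3 and 83.9. These 2 genes did not pass in the earlier step (the authors' adjusted p = 0.205 and 0.545) and rose in maturation, where Cd63 was 1.86-fold and Scarb2 1.74-fold higher than in secretory cells (the authors' adjusted p = 0.00197 and 7.28e-04).

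The reverse timing was seen in Npc1, the membrane protein that exports cholesterol from lysosomes, with means of 20.9, 30.3 and 32.3 over the stages. It was 1.45-fold higher in secretory than in cervical loop cells (the authors' adjusted p = 0.0178) and 1.07-fold higher in maturation against secretory cells, which did not pass. Laptm4a, a lysosomal membrane protein with several membrane passes, stood at 151, 219.9 and 216, and its paralogue Laptm4b at 19.9, 26.3 and 33.6. The paralogues were 1.45-fold and 1.32-fold higher in secretory than in cervical loop cells (the authors' adjusted p = 0.0345 and 0.0286). In the later step Laptm4b rose further (1.28-fold, the authors' adjusted p = 0.0299), while Laptm4a did not pass (log2 ratio -0.02, the authors' adjusted p = 0.831). Gpnmb, a glycoprotein of lysosomes known for its expression in macrophages and osteoclasts, stood at 53.7, 38.8 and 112. It was 2.90-fold higher in maturation against secretory cells (the authors' adjusted p = 0.0253).

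Promoters are shown for the genes called in all 3 pairs of stages and for Lgmn, the called gene with the largest fold, as far as RefSeq promoter sequences were at hand, because the elements that Tfeb and its relatives are known to bind can be looked for in them. Those called in all 3 pairs were Lamp1, Mcoln1, Laptm4b, Ctsb, Man2b1, Fuca1, Galc and Psap. Among the 45 measured genes, 37 were matched by symbol to a RefSeq promoter of the GRCr8 build, which holds 250 bases before and 50 after the gene's start. The genes without one are Laptm4b, Ctsb, Hexa, Arsa, Arsb, Asah1, Ppt1 and Psap. Each stretch below runs 5′ to 3′ from 250 bases before the start to 30 after it, and capitals mark each match to CACGTG, the centre of the element. The stretches lie at chr16:83075034-83075313, minus strand (Lamp1), chr12:6358008-6358287, plus strand (Mcoln1), chr6:123245530-123245809, minus strand (Galc), chr19:39979217-39979496, minus strand (Man2b1), chr5:153436012-153436291, plus strand (Fuca1) and chr6:127347299-127347578, minus strand (Lgmn).
Lamp1: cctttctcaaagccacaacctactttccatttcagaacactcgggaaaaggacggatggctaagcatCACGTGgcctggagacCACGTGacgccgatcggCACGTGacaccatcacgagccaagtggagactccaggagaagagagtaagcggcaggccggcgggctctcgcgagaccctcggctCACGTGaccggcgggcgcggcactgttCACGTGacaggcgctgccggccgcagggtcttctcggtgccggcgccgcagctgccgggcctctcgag
Mcoln1: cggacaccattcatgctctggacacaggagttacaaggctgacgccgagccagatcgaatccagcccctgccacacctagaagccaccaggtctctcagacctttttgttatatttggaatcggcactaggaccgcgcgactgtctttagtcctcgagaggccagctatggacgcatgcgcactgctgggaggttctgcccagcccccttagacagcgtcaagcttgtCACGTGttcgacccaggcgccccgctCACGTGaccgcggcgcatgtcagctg
Galc: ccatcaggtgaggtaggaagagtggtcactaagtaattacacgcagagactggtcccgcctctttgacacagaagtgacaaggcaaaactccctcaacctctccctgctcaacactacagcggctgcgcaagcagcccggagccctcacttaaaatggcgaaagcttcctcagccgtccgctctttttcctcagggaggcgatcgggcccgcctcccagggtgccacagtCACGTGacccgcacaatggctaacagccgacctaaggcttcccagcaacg
Man2b1: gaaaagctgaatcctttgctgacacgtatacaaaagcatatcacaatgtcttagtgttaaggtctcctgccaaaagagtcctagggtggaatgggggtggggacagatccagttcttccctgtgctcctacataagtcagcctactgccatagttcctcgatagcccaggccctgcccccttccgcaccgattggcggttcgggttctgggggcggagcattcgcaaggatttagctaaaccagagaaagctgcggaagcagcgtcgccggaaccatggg
Fuca1: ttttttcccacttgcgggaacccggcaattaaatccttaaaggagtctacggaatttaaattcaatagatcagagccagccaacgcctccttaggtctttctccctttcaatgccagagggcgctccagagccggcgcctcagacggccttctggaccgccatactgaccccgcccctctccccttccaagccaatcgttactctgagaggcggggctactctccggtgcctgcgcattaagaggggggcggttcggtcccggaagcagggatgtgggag
Lgmn: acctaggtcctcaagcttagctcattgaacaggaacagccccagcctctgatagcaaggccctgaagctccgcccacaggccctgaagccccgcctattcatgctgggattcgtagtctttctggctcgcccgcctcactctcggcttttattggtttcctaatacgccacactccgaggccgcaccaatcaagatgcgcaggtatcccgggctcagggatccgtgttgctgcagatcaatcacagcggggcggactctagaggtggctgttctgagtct
In these stretches Lamp1 had 5 matches, which began 183, 167, 150, 65 and 38 bases before the start. Mcoln1 had 2, which began 22 bases before the start and at base 5 after it, and Galc had 1, which began 20 bases before the start. Man2b1, Fuca1 and Lgmn had none in this window.

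On both strands of the full 300-base promoters, CACGTG was found in 9 of the 37 lysosomal genes (24.3%): Lamp1, Cd63, Ctsd, Ctsf, Gaa, Glb1, Galc, Idua and Mcoln1. It was found in 6.42% of all 33469 promoters and in 9.20% of the 11020 measured genes with a promoter. The longer form TCACGTGA, whose matches all lie within those of CACGTG, was found in 4 of the 37 (10.8%), against 0.777% of all promoters and 1.58% of the measured genes. These 4 were Lamp1 with 2 matches and Ctsd, Galc and Mcoln1 with 1 each. In secretory against cervical loop cells, 3 of the 9 genes with CACGTG rose and 1 fell, and of the 28 without it 10 rose and 1 fell. In maturation against secretory cells, 6 of the 9 with it rose and 1 fell (Glb1), and of the 28 without it 9 rose and 2 fell. In maturation against cervical loop cells, 7 of the 9 with CACGTG and 19 of the 28 without it rose, and 1 of the 28 fell. Of the 4 genes with the longer form, 2 rose and 1 fell in secretory against cervical loop cells, and all 4 rose in each of the other comparisons. Of the 33 without the longer form, 11 rose in secretory against cervical loop cells, 11 in maturation against secretory cells and 22 in maturation against cervical loop cells. In the same order 1, 3 and 1 of these 33 fell. Of all genes, 16.5%, 21.8% and 24.1% rose and 25.2%, 21.1% and 33.7% fell over the 3 comparisons in that order. Calls were not counted for all measured genes with CACGTG, so whether the motif goes with a rise was not tested. These are descriptions of letters in a window and of calls beside them.

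Proteases were mostly higher in maturation ameloblasts, and the largest fold of any called lysosomal gene, that of Lgmn, was among them. Of 12 measured, 10 rose in maturation against cervical loop cells, 7 rose in maturation against secretory cells and 3 rose in secretory against cervical loop cells, with none lower in any. The shares that rose were 83.3%, 58.3% and 25.0%, against 24.1%, 21.8% and 16.5% of all genes. The last, of 3 genes, lay near that of all genes. Lgmn, the protease that cuts after asparagine and activates several cathepsins, stood at 46.6 in cervical loop, 34.8 in secretory and 182 in maturation cells. It was 5.22-fold higher in maturation against secretory cells (the authors' adjusted p = 1.49e-04) and 3.90-fold higher than in cervical loop cells (the authors' adjusted p = 8.80e-05). The cervical loop and secretory means of Lgmn did not differ past the threshold (the authors' adjusted p = 0.0797).

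Ctsf, a cysteine cathepsin, stood at 14.5, 16.2 and 65.4 over the stages. The maturation mean was 4.04-fold above the secretory and 4.50-fold above the cervical loop mean (the authors' adjusted p = 3.85e-04 and 1.61e-04), while the earlier step did not pass (1.12-fold, the authors' adjusted p = 0.395). Ctss, a cathepsin known from antigen-presenting cells, stood at 6.2, 6.11 and 16.5 and was 2.70-fold higher in maturation against secretory cells (the authors' adjusted p = 0.00440). Tpp1, which removes tripeptides from protein ends, stood at 31.9, 37.5 and 69.0, and Ctsd, the main aspartic protease of lysosomes, at 102, 82.8 and 158. In maturation against secretory cells Tpp1 was 1.84-fold and Ctsd 1.91-fold higher (the authors' adjusted p = 0.00301 and 0.00135). Ctsa, which protects other lysosomal enzymes and also acts as a carboxypeptidase, stood at 69.8, 82.8 and 119.9, and was 1.45-fold higher in the same comparison (the authors' adjusted p = 0.0144).

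Ctsl followed another course, with a mean of 99.8 in cervical loop, 259 in secretory and 241 in maturation cells. This cysteine cathepsin was 2.60-fold higher in secretory than in cervical loop cells (the authors' adjusted p = 6.09e-04), and its later step did not pass (log2 ratio -0.11, the authors' adjusted p = 0.543). Ctsc, which activates serine proteases of immune cells, stood at 29.1, 60.9 and 74.4 and was 2.09-fold higher in the earlier step (the authors' adjusted p = 0.00630). Its later step, 1.22-fold, did not pass (the authors' adjusted p = 0.354). Ctsb rose in both steps, with means of 263, 408 and 595, and was 1.55-fold higher in secretory than in cervical loop and 1.46-fold higher in maturation against secretory cells (the authors' adjusted p = 0.00590 and 0.00971). For Ctsh, an aminopeptidase of this family, the means were 95.6, 98.4 and 140.4, and it passed for maturation against cervical loop cells (1.47-fold, the authors' adjusted p = 0.0328) and in neither step between.

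Ctsk and Ctsz passed in no pair of stages. Ctsk, the collagen-cutting cathepsin of osteoclasts, stood at 520.1 in cervical loop, 264 in secretory and 457 in maturation cells. Its secretory mean was the lowest, with a log2 ratio of -0.98 to cervical loop cells and the authors' adjusted p of 0.331. Ctsz stood at 51.7, 31.6 and 45.6. Acp5, the tartrate-resistant acid phosphatase of osteoclasts, stood at 243, 155 and 265, and passed in none (the lowest of the authors' adjusted p-values was 0.306). These 3 genes had their lowest mean in secretory cells. Beside them, all 10 osteoclast markers outside the members (among them Mmp9, Atp6v0d2 and Itgb3) had a negative log2 ratio in secretory against cervical loop cells, with none past the threshold and 1 at an unadjusted p under 0.05. Their means summed to 146 in cervical loop, 71.7 in secretory and 157 in maturation cells.

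Glycosidases, which take sugars off glycoproteins, glycolipids and glycosaminoglycans, did not all move alike. In secretory against cervical loop cells 4 of the 11 rose (36.4%, against 16.5% of all genes). In maturation against secretory cells 3 of these 4 (Man2b1, Fuca1 and Glb1) fell, and Neu1 was the gene that rose. The 3 made up 27.3%, near the 21.1% of all genes, and Neu1 9.09%, against 21.8%. The later falls thus describe these 3 genes and not the glycosidases as a class. Man2b1, the lysosomal alpha-mannosidase, stood at 61.0 in cervical loop, 267 in secretory and 83.6 in maturation cells. It was 4.37-fold higher in secretory than in cervical loop cells (the authors' adjusted p = 4.60e-04) and 3.19-fold lower in maturation than in secretory cells (the authors' adjusted p = 4.65e-04). The maturation mean stayed 1.37-fold above the cervical loop mean (the authors' adjusted p = 0.0258).

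Fuca1, which removes fucose, stood at 24.4, 70.3 and 37.3, and was 2.89-fold higher in secretory than in cervical loop cells and 1.89-fold lower in maturation than in secretory cells (the authors' adjusted p = 4.61e-04 and 0.00104). Glb1, the beta-galactosidase of lysosomes, stood at 36.2, 62.9 and 39.8. It was 1.74-fold higher in the earlier step and 1.58-fold lower in the later (the authors' adjusted p = 0.00453 and 0.00727), and its 2 outer stages did not differ past the threshold (1.10-fold, the authors' adjusted p = 0.292). Both genes were highest in secretory ameloblasts.

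Manba, the beta-mannosidase that acts on the sugar left by Man2b1, rose in the earlier step alone: its means were 10.8, 27.3 and 33.4. It was 2.53-fold higher in secretory than in cervical loop cells (the authors' adjusted p = 0.00199), and the later step did not pass (1.22-fold, the authors' adjusted p = 0.164). Neu1, the sialidase of lysosomes, had its lowest mean in secretory cells: it stood at 7.36, 6.07 and 14.2, and was 2.34-fold higher in maturation against secretory cells (the authors' adjusted p = 0.00764). Hexa, a subunit of beta-hexosaminidase, and Idua, the iduronidase of heparan and dermatan sulfate breakdown, passed for maturation against cervical loop cells alone. Their means were 35.9, 41.2 and 46.4 for Hexa (1.29-fold, the authors' adjusted p = 0.0197) and 24.3, 29.5 and 32.3 for Idua (1.33-fold, the authors' adjusted p = 0.0276). The difference among the 3 stages together did not pass for Idua (the authors' adjusted p = 0.0557).

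Gaa, Gla, Gusb and Naglu passed in no pair of stages. Gaa breaks down glycogen, Gla the glycolipids with a terminal alpha-galactose, Gusb glucuronides and Naglu heparan sulfate. Their largest log2 ratios in either direction were 0.10 for Gaa, 0.24 for Gla, -0.30 for Gusb and 0.12 for Naglu. Without values per library, no interval of these differences could be computed.

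**Figure D3:**
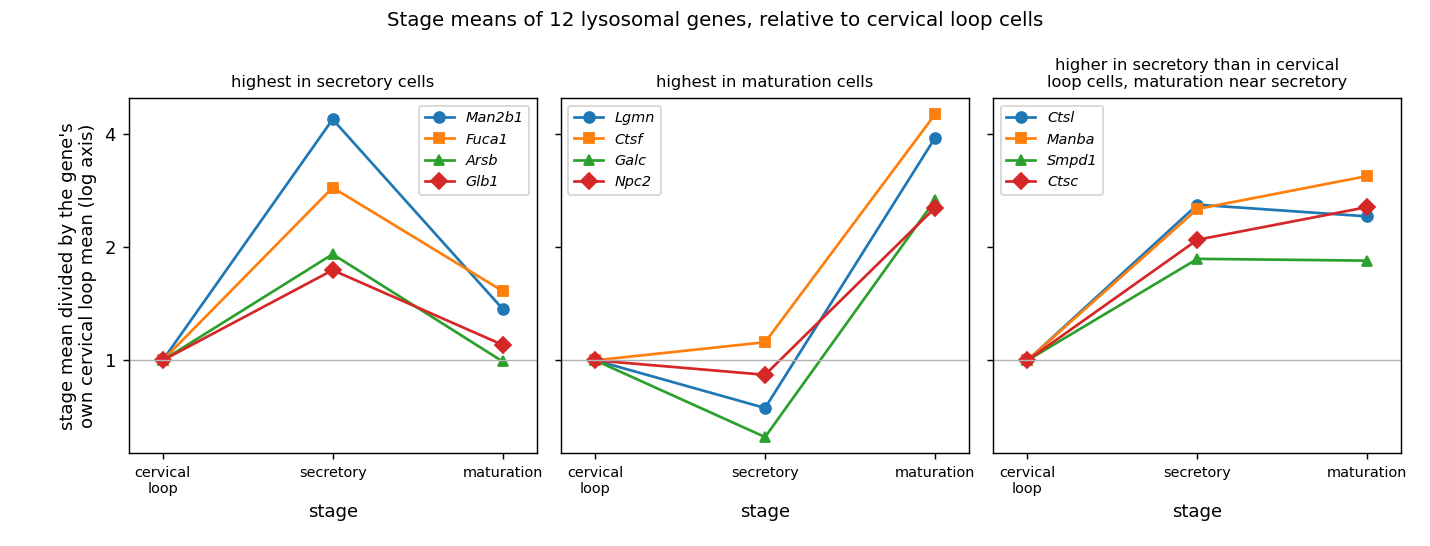
Stage means of 12 lysosomal genes divided by the gene's own cervical loop mean (log axis), with 1 panel for each of 3 shapes. The genes were picked for these shapes after their values were seen. Man2b1 peaks at 4.37 in secretory cells and returns to 1.37 in maturation. Ctsf reaches 4.50 and Lgmn 3.90 in maturation, and Ctsl lies at 2.60 in secretory and 2.41 in maturation cells.

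Of the sulfatases, which take sulfate off glycans and lipids, 3 were measured, and 2 of them rose in secretory against cervical loop cells. A list of 3 is too short to be read against the 16.5% of all genes that rose. Arsb, which acts on dermatan and chondroitin sulfate, stood at 146 in cervical loop, 279.7 in secretory and 145 in maturation cells. The secretory mean was the highest, 1.92-fold above the cervical loop mean (the authors' adjusted p = 0.00988), and the maturation mean was 1.93-fold below it (the authors' adjusted p = 0.00909). Arsa, which acts on sulfatide, stood at 13.8, 18.6 and 19.4 and was 1.35-fold higher in secretory than in cervical loop cells (the authors' adjusted p = 0.0149). Ids, the iduronate sulfatase, passed in no pair, with means of 22, 22.5 and 22.8.

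Enzymes and carriers for lipids rose mainly in maturation: 6 of the 7 were higher in maturation than in secretory ameloblasts, and 5 were higher in maturation than in cervical loop cells. The shares of all genes that rose in these comparisons were 21.8% and 24.1%. Galc, which breaks down galactosylceramide, stood at 4.16 in cervical loop, 2.60 in secretory and 11.1 in maturation cells. It was 1.60-fold lower in secretory than in cervical loop cells (the authors' adjusted p = 0.0174) and 4.28-fold higher in maturation against secretory cells (the authors' adjusted p = 2.70e-04). Npc2, the carrier that hands cholesterol to Npc1, stood at 49.5, 45.3 and 126, and was 2.78-fold higher in maturation against secretory cells (the authors' adjusted p = 3.99e-04), a step in which Npc1 itself did not pass. Psap, the precursor of the saposins that help enzymes reach their lipids, stood at 204, 279.9 and 500.5. It rose in both steps, 1.37-fold and then 1.79-fold (the authors' adjusted p = 0.0257 and 0.00275).

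Smpd1, the acid sphingomyelinase, stood at 43.5, 81 and 80.1 and rose in the earlier step (1.86-fold higher in secretory than in cervical loop cells, the authors' adjusted p = 0.00111). Its later step did not pass (log2 ratio -0.02, the authors' adjusted p = 0.821). Asah1, the acid ceramidase that acts on the product of Smpd1, stood at 25.1, 27.6 and 38.1 and rose in the later step (1.38-fold, the authors' adjusted p = 0.0268). Ppt1, which takes fatty acids off proteins, stood at 23.8, 19.5 and 29.8, and Lipa, the acid lipase of cholesteryl esters, at 15.9, 14.7 and 20.1. Both were higher in maturation than in secretory cells, 1.52-fold for Ppt1 and 1.37-fold for Lipa (the authors' adjusted p = 0.0119 and 0.0327), and neither passed against cervical loop cells.

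Acp2, the acid phosphatase of the lysosomal membrane, fell in both later stages against cervical loop cells. It stood at 20.9 in cervical loop, 16.0 in secretory and 14.4 in maturation cells, and was 1.31-fold lower in secretory and 1.45-fold lower in maturation than in cervical loop cells (the authors' adjusted p = 0.00624 and 9.11e-04). Tfeb, the transcription factor, stood at 3.99, 5.71 and 7.58. It was 1.43-fold higher in secretory than in cervical loop cells (the authors' adjusted p = 0.0329) and 1.90-fold higher in maturation than in cervical loop cells (the authors' adjusted p = 0.00216), and its later step did not pass (1.33-fold, the authors' adjusted p = 0.0544).

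Most macrophage markers moved with the later step. Of 17 measured outside the members (Itgam was not in the table), 12 were higher and none lower in maturation than in secretory ameloblasts, 10 were higher in maturation than in cervical loop cells, and none passed in secretory against cervical loop cells. None of the 17 reached an unadjusted p under 0.05 in that earlier comparison. In maturation against secretory cells Csf1r, Adgre1, Spi1, Mrc1 and Cd163 did not pass, and the log2 ratio of Cd163 was -0.24. Means of the 17 summed to 335 in cervical loop, 281 in secretory and 837 in maturation cells. Among all genes, 21.8% were higher and 21.1% lower in maturation than in secretory cells. The shares in maturation against cervical loop cells were 24.1% and 33.7%. Cd14, a receptor of monocytes, was 4.47-fold and Cd74, of antigen presentation, 3.99-fold higher in maturation against secretory cells (the authors' adjusted p = 2.42e-04 and 3.75e-04). The part of macrophages in the rise of the lysosomal genes was not tested. Without the 6 members that macrophages or osteoclasts are known for (Acp5, Ctsk, Ctss, Ctsc, Gpnmb and Lgmn), 17 of the other 39 rose and 4 fell in maturation against secretory cells, with a median log2 ratio of 0.35. In maturation against cervical loop cells 28 of those 39 rose. The 6 were picked by name, and bulk means do not show which cells express the other 39. Leaving the 6 out can therefore not separate macrophages from ameloblasts. Endothelial markers moved in the same direction: 3 of 6 were higher in maturation than in secretory cells and 5 of 6 were higher than in cervical loop cells. Of the 10 mesenchyme markers, 4 were higher and none lower in maturation than in secretory cells, all 10 with a positive log2 ratio (median 0.56). All 10 osteoclast markers also had a positive log2 ratio in that comparison (median 0.99), and 2 of them passed, Nfatc1 (1.91-fold, the authors' adjusted p = 0.0202) and Tnfrsf11a (2.71-fold, the authors' adjusted p = 0.0378). Of all genes with a log2 ratio, 8023 of 15880 had a positive one in that comparison. The part of endothelial cells, mesenchyme and osteoclasts was not tested either.

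Of the summed means of all genes, the 45 lysosomal genes made up 0.691% in cervical loop, 0.60% in secretory and 1.01% in maturation cells. With the 10 largest genes of each stage left out of the sum, Ambn, Amelx and Enam among them, the shares were 0.816%, 0.914% and 1.22%. The order of cervical loop and secretory cells thus turned with the choice of the sum, and maturation cells were highest under both.

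**Figure D4:**
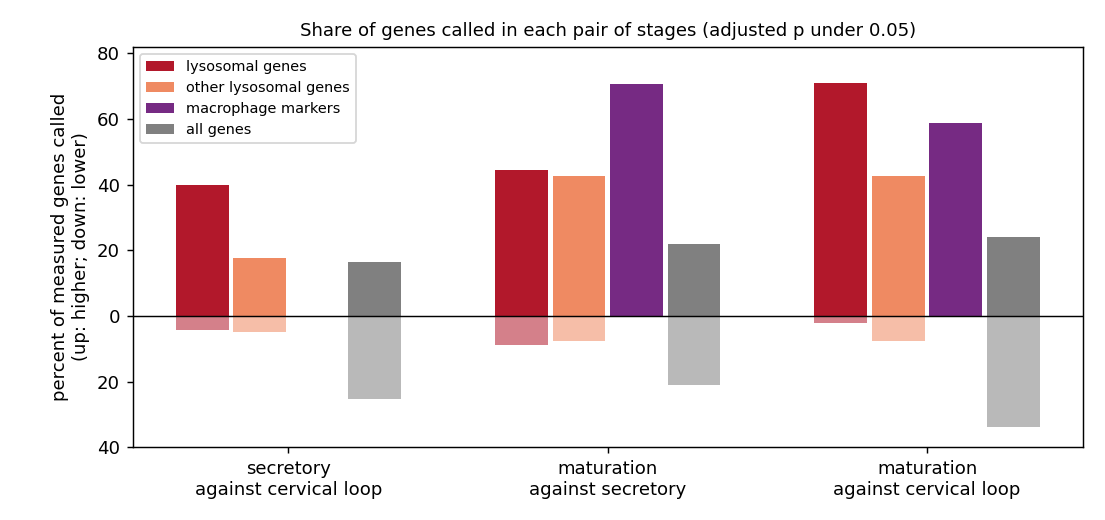
Percent of measured genes higher (bars up) or lower (bars down) in each pair of stages at an adjusted p under 0.05, for the 45 lysosomal genes, 40 other lysosomal or related genes, 17 macrophage markers and all genes. Lysosomal genes rose in 40.0%, 44.4% and 71.1% of cases over the 3 pairs, against 16.5%, 21.8% and 24.1% of all genes. Macrophage markers have no bar in the first pair.

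Other lysosomal or related genes were counted on a list that overlaps none of the members. Of the 43 listed, 40 were measured, and 7 rose and 2 fell in secretory against cervical loop cells, with a median log2 ratio of -0.02. In maturation against secretory cells 17 rose and 3 fell (median 0.35), and in maturation against cervical loop cells 17 rose and 3 fell (median 0.36). Those that rose made up 17.5%, 42.5% and 42.5% over the 3 comparisons, against 16.5%, 21.8% and 24.1% of all genes. Those that fell made up 5.00%, 7.50% and 7.50%, against 25.2%, 21.1% and 33.7%. The 17.5% lay near the share of all genes, so a gene that rose in that first comparison describes itself and not the list. Cd68 and Laptm5, both on this list, are macrophage markers as well. Slc36a1, an amino acid exporter of the lysosome, stood at 14.4 in secretory and 6.38 in cervical loop cells (2.26-fold higher, the authors' adjusted p = 0.00129). Slc11a2, which moves iron out of endosomes and lysosomes, stood at 137 in maturation and 27.2 in cervical loop cells (5.05-fold higher, the authors' adjusted p = 1.40e-04). Fuca2, a fucosidase, stood at 15.8 in maturation and 5.25 in secretory cells (3.0-fold higher, the authors' adjusted p = 0.00137). Galns, the sulfatase of keratan sulfate, was 2.90-fold lower in maturation than in secretory cells (21.9 and 63.4, the authors' adjusted p = 0.00303). Atp13a2, a lysosomal polyamine pump, was 1.65-fold lower in maturation than in cervical loop cells (13.5 and 22.2, the authors' adjusted p = 0.00102).

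Genes that tag and sort hydrolases were measured at 19 of 20. In secretory against cervical loop cells 7 rose and 1 fell, in maturation against secretory cells 8 rose and 5 fell, and in maturation against cervical loop cells 10 rose and 2 fell. Those that rose made up 36.8%, 42.1% and 52.6%, against 16.5%, 21.8% and 24.1% of all genes. Those that fell made up 5.26%, 26.3% and 10.5%, against 25.2%, 21.1% and 33.7%. The 26.3% lay near the share of all genes, so genes lower in maturation than in secretory cells describe themselves and not the list. Gga2, an adaptor that loads mannose 6-phosphate receptors at the Golgi, was 2.61-fold higher in secretory than in cervical loop cells (128 and 48.9, the authors' adjusted p = 0.00148) and 2.25-fold lower in maturation than in secretory cells (56.8 and 128, the authors' adjusted p = 0.00226). Sort1, a sorting receptor, was 3.21-fold lower in maturation than in secretory cells (44.2 and 142, the authors' adjusted p = 2.64e-04). Ap1b1, of the adaptor complex between Golgi and endosomes, was 1.73-fold higher in maturation against secretory cells (74.9 and 43.3, the authors' adjusted p = 4.25e-04).

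The relatives of Tfeb and the genes of mTORC1, the kinase complex that holds Tfeb in the cytoplasm, were measured at 19 of 22. In the order of comparisons above, 4, 5 and 6 rose and 1, 2 and 2 fell, with medians of 0.04, 0.01 and 0.02. The shares that rose, 21.1%, 26.3% and 31.6%, lay near those of all genes (16.5%, 21.8% and 24.1%). The shares that fell, 5.26%, 10.5% and 10.5%, lay below those of all genes (25.2%, 21.1% and 33.7%). The single genes named next describe themselves and not the list. Mitf was 2.05-fold higher in secretory than in cervical loop cells (10.6 and 5.18, the authors' adjusted p = 0.00694), and Tfe3 was 1.67-fold higher in maturation than in cervical loop cells (11.4 and 6.79, the authors' adjusted p = 0.00198). Rragd, a GTPase that recruits mTORC1 to lysosomes, was 4.21-fold lower in maturation than in cervical loop cells (2.42 and 10.2, the authors' adjusted p = 4.02e-04). Fnip2, of the complex that acts on such GTPases, was 1.93-fold higher in maturation against secretory cells (23.0 and 11.9, the authors' adjusted p = 0.00132).

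All 21 autophagy genes listed were measured. In secretory against cervical loop cells 7 rose and 1 fell, in maturation against secretory cells 10 rose and 4 fell, and in maturation against cervical loop cells 13 rose and 1 fell (median log2 ratios 0.17, 0.23 and 0.50). Those that rose made up 33.3%, 47.6% and 61.9%, against 16.5%, 21.8% and 24.1% of all genes. Those that fell made up 4.76%, 19.0% and 4.76%, against 25.2%, 21.1% and 33.7%. The 19.0% lay near the share of all genes, so a gene lower in maturation than in secretory cells describes itself and not the list. Becn1, which starts autophagosome formation, was 1.68-fold higher in maturation than in cervical loop cells (50.8 and 30.2, the authors' adjusted p = 4.52e-05). Optn, an autophagy receptor, was 2.88-fold higher in secretory than in cervical loop cells (67.0 and 23.3, the authors' adjusted p = 4.24e-04). Atg5, needed to extend the autophagosome membrane, was 1.56-fold lower in maturation than in secretory cells (9.85 and 15.4, the authors' adjusted p = 0.00155).

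Transcript make-up was listed for 9 of the lysosomal genes in the authors' isoform tables. By the p-values of those deposited tables, adjusted here over genes, none of the 9 changed in any pair of stages, and none reached an unadjusted p under 0.05, which 11.4%, 11.4% and 14.4% of all genes of those tables did. With 9 genes, a count of 0 lies near those shares. Among all genes of those tables, 1.19% changed in secretory against cervical loop, 1.80% in maturation against secretory and 2.79% in maturation against cervical loop cells. The lowest unadjusted p of the authors' deposited tables was 0.0536, for Asah1 in maturation against secretory cells. The main transcript of Lamp1 took 99.5% of the gene's summed transcript means in maturation and 99.3% in secretory cells. Lipa and Ctsh divided their signal between 2 transcripts: the larger took 56.4% of Lipa in maturation and 59.1% in secretory cells, and 56.1% of Ctsh in maturation and 57.4% in secretory cells.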

How the data were processed

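Per the labels, 5 rats gave the RNA. Only RNA with an integrity number of 7 or more was made into libraries, which removed 1 rat's cervical loop cells, and each library gave 25000000 reads of 75 bases from single ends. The submitters' processing notes name STAR 2.5.3a, Partek and the build rn6. The normalisation, model terms, annotation and strand setting were not stated in the sources at hand. Without counts per gene, counting error could not be given.

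The authors deposited a table with p-values, FDR values and ratios for each pair of stages. The deposited least-squares means and signed folds were treated as a score, because their unit is not stated and 3 secretory means lie below 0. Each deposited total is close to a weighted sum of the means, with weights of 3.99 (cervical loop), 3.99 (secretory) and 5.01 (maturation), so the number of libraries behind the secretory means and p-values was not settled: the labels name 1 left-out library, of the cervical loop.

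Deposited p-values were adjusted here by Benjamini-Hochberg over all genes (threshold 0.05), within 4.92e-16 of the authors' FDR. Direction and fold come from the means. The scale on which the authors tested is not given, so a fold and its p may measure different quantities. Members and lists were chosen with earlier results of these data known. Of the lysosomal genes, each one called in any pair is named, and of every other list at most the 2 genes with the lowest p per direction could be named. The adjustment was tested on simulated data. Python 3.11.15, numpy 2.4.6 and pandas 2.3.3 were used. Promoters came from RefSeq (GRCr8), a build other than that of the reads.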

Additional observations from a re-analysis of the deposited data

How the results depend on the processing

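Of the calls of single lysosomal genes, 20 were lost at a threshold of 0.01. A pseudocount of 1 cannot turn the direction of a ratio of positive means and is no check of it. In secretory against cervical loop cells, 12 of the 20 lysosomal genes called (11 higher and 1 lower) remained at 0.01, and 10 (9 higher and 1 lower) with a fold of at least 1.5. With that fold, 0 were lower in maturation than in cervical loop cells, against 1 without it. The median log2 ratio moved from 0.20 to 0.34 relative to the median of all genes and to 0.08 with means scaled to their sum without the 10 largest genes of each stage, in secretory against cervical loop cells. For maturation against cervical loop cells it moved from 0.63 to 0.75 and 0.51 in the same way. This scaling shifts every gene by -0.12 in both comparisons, so the distance to the median of all genes stays as it was. The median was 0.35 in place of 0.46 for maturation against secretory cells without the genes macrophages or osteoclasts are known for.

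The 4 lists outside the members held 40, 19, 19 and 21 measured genes. Over these lists, 25 genes were higher and 5 lower in secretory against cervical loop cells (16 and 3 at 0.01, 11 and 2 with the fold). The counts were 40 and 14 in maturation against secretory cells (21 and 8 at 0.01, 21 and 5 with the fold). In maturation against cervical loop cells they were 46 and 8 (29 and 5 with the fold, and 5 lower at 0.01). Of the 45 genes, 36 differed among the stages, with 29 at 0.01 and 32 of 39 without the genes known from macrophages or osteoclasts, and these 2 alternatives were chosen after seeing the data. No paired analysis was possible because each stage is held as 1 mean, and for the same reason no library could be left out in turn.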
